A study of Mus musculus with 2 samples.

Results

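Rab proteins are small GTPases that give membranes their identity and direct traffic between organelles. Bound to GTP, a Rab sits on a membrane and recruits effectors that move, tether or fuse vesicles; bound to GDP, it is drawn off the membrane by a GDP dissociation inhibitor. Exchange factors load the GTP, GTPase-activating proteins end the active state, and lipid groups attached to cysteines at the end of the protein hold it in the membrane. In neurons the family is best known for the Rab3 proteins of synaptic vesicles and for the Rabs of axonal and endosomal transport.

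The Rab genes were taken as the protein-coding genes whose mouse symbol is Rab followed by a number and at most a short suffix, so that regulators such as Rab3gap1 stayed out. There were 59, out of 21474 protein-coding genes among 43346 gene rows. Their levels were measured by RNA sequencing in 2 areas of the cerebellar granule layer, the layer packed with small excitatory granule neurons, each area cut out by laser capture. Both areas came from adult male wild-type tissue of the B6NCrl strain at an age of 8 months, covered 18000 square microns, started from a quantity of 50 cells and were made into Smart-seq libraries from total RNA. They form 1 group, are numbered as replicates 1 and 2, and carry the same donor label, so that the spread between them may be between areas of 1 animal. There is no second condition, and every SD below has n = 2.

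Replicate 1 held 19962271 expected counts on genes and replicate 2 held 19261911, and where a gene had no counts the upper limit was taken as 3, which is 0.150 and 0.156 per 1000000 counts on genes. All 10 granule neuron markers were detected, with a summed level of 2865 TPM (transcripts per 1000000) in replicate 1 and 3124 in replicate 2. Markers of other cells were also present. The summed level was 607 and 568 TPM for Bergmann glia and astrocytes, 547 and 666 for oligodendrocytes, 124 and 189 for Purkinje cells, and 44.3 and 33.5 for Golgi cells and other inhibitory neurons. Red blood cell genes stood apart, at 5040 TPM in replicate 1 and 390 in replicate 2. A Rab level here is therefore that of the captured layer, and fewer cells of a type and less RNA per cell cannot be told apart.

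The Rabs share a feature at the end of their coding sequence, the cysteines that receive the lipid groups. For the leading complete coding transcript of each gene, the last 5 codons before the stop were searched for a cysteine codon (TGC or TGT) on the coding strand. Of the 59 genes, 57 held at least 1 and 49 held at least 2, against 12.6% and 1.93% of 21613 protein-coding genes with a complete coding end. In 19 genes a pair of cysteine codons with another codon between them closed the sequence, in 15 the last 2 codons were both cysteine, in 15 an adjacent pair was followed by other codons, and 8 had a single cysteine codon. The remaining 2 were the leading transcripts of Rab18 and Rab43, though each of these genes has another coding transcript with such a codon. The coding ends of some of the highest and of the best-known members show the 4 kinds. Each runs 5′ to 3′ on the coding strand of GRCm38 to the stop codon, with the cysteine codons in capitals.
Rab2a, chr4:8606471-8606503, plus strand: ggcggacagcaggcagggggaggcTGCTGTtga
Rab1a, chr11:20224813-20224845, plus strand: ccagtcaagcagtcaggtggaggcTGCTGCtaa
Rab6a, chr7:100639287-100639319, plus strand: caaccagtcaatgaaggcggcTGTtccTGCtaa
Rab3a, chr8:70758056-70758088, plus strand: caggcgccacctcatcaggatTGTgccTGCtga
Rab3b, chr4:108940781-108940813, plus strand: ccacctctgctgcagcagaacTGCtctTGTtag
Rab7, chr6:88000435-88000467, minus strand: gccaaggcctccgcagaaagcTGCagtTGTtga
Rab11b, chr17:33747668-33747700, minus strand: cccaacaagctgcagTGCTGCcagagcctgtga
Rab5a, chr17:53506397-53506429, plus strand: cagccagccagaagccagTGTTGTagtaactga
Rab8a, chr8:72180105-72180137, plus strand: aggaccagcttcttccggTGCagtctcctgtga
Rab2a and Rab1a end in the adjacent pair, and Rab6a, Rab3a, Rab3b and Rab7 end in the spaced pair. Rab11b and Rab5a carry an adjacent pair before further codons, and Rab8a has a single cysteine codon.

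Of the 59 Rab genes, 48 were detected in both areas (1 TPM or more from 5 or more expected counts), which is 81.4%. Of all protein-coding genes, 50.4% were. The median Rab level was 11.7 TPM in replicate 1 and 10.6 in replicate 2, while the median of all protein-coding genes was 1.42 and 1.38 TPM. Among genes detected in both areas the gap was smaller, with a median of 20.7 TPM for 48 Rabs and 14.3 TPM for the protein-coding genes. The levels spanned a wide range. In the mean of both areas 7 Rabs were above 100 TPM, 14 above 50 and 31 above 10, 18 lay between 1 and 10, and 7 had no counts. All members together reached 2377 ± 45.8 TPM (SD, n = 2), of which the 5 highest held 44.9% and the 12 highest 72.5%. Rescaled over nuclear protein-coding genes alone, the sum was 4003 TPM. The 12 highest were the same genes in both areas.

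**Figure D1:**
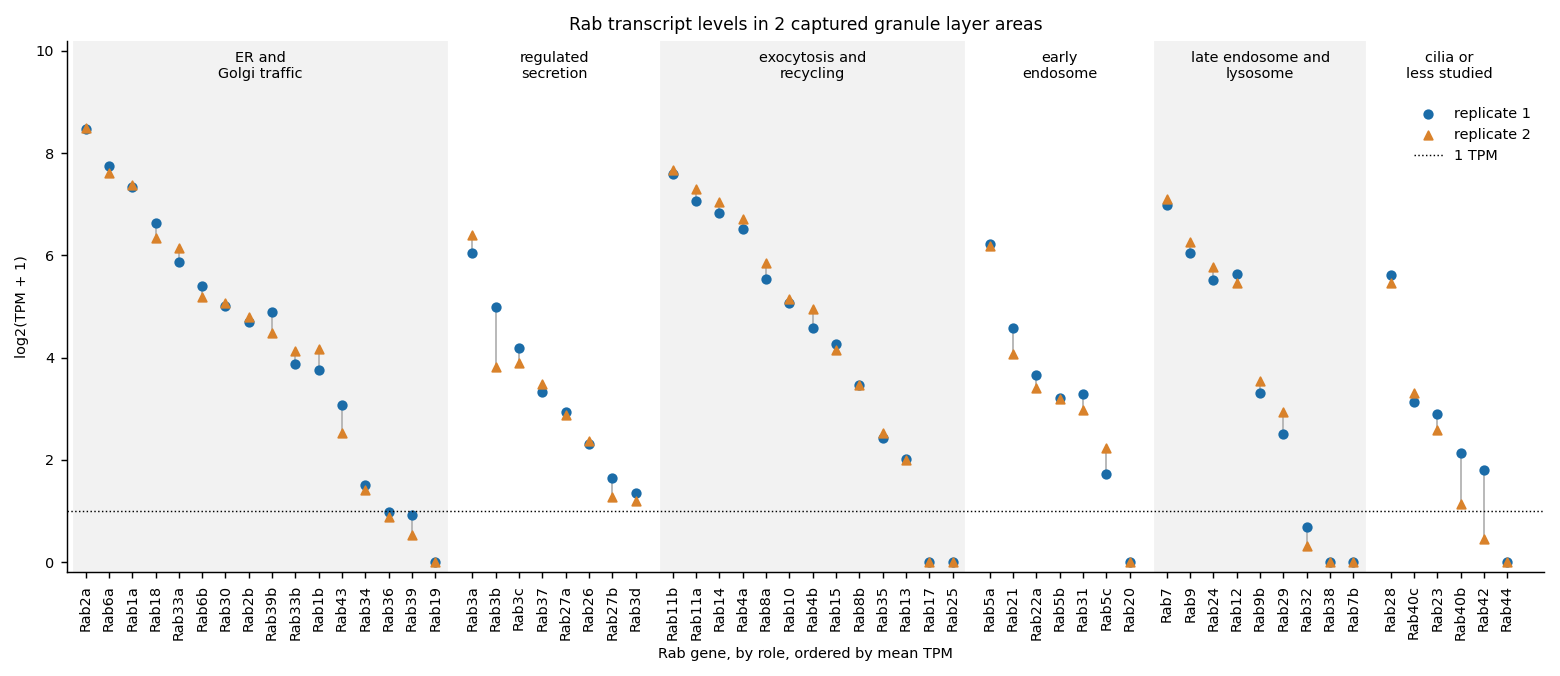
Level of each of the 59 Rab genes as log2(TPM + 1) on the vertical axis, grouped by role and ordered by mean TPM within a role, with circles for replicate 1 and triangles for replicate 2 joined by a line. The dotted line marks 1 TPM; Rab2a is highest in both areas, 7 genes sit at 0, and the joined points lie close together except for Rab3b, Rab40b and Rab42.

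The Rabs of the endoplasmic reticulum and Golgi made up the largest share, 43.6% of the family's summed TPM, and 13 of these 16 genes were detected. Rab2a (ENSMUSG00000047187.9, chr4:8535644-8607778), which works between the endoplasmic reticulum and the Golgi, was the highest Rab of all, at 354 TPM in replicate 1 and 359 in replicate 2. It alone held 15.0% of the family's summed TPM. Rab6a (ENSMUSG00000030704.10, chr7:100607410-100641268), a Golgi Rab of retrograde and secretory transport, stood at 215 and 194 TPM. Rab1a, which drives transport from the endoplasmic reticulum to the Golgi, stood at 161 and 166 TPM. Rab18, linked to lipid droplets and the endoplasmic reticulum, was lower, with 97.7 and 79.6 TPM. Both Rab2a values lay above both of Rab6a, while the values of Rab6a and Rab11b overlapped.

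Exocytosis and recycling came next with 29.8% of the summed TPM and 11 of 13 genes detected. Rab11b and Rab11a, the markers of the recycling endosome, were the highest of the group. Rab11b was at 193 TPM in replicate 1 and 202 in replicate 2, and Rab11a at 132 and 157. Rab14, which moves cargo between the Golgi and endosomes, was at 113 and 131 TPM. Rab4a, the Rab of rapid recycling, was at 90.8 and 104 TPM. All 4 were higher in replicate 2, as were 26 of the 52 Rabs tested. Within the group, Rab15 (18.1 and 16.6 TPM) and Rab13 (3.07 and 2.99 TPM) were the detected genes higher in replicate 1. The sum of the group was 665 TPM in replicate 1 and 750 in replicate 2. Rab17 and Rab25, known from epithelial cells, had no counts in either area.

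Among the Rabs of late endosomes and lysosomes, 6 of 9 were detected, with 13.2% of the summed TPM. Rab7, the Rab of the late endosome and of fusion with lysosomes, was at 126 and 136 TPM. Rab9, which returns cargo from late endosomes to the Golgi, was at 65.6 and 76.3 TPM. Rab24, an atypical Rab linked to autophagy, was at 44.8 and 53.6 TPM, but 1258 of its exon bases are shared with Prelid1 on the opposite strand, which stood at 101 and 110 TPM. Whether the counting used strand is not given in the sources used here, so the Rab24 level is uncertain. Rab7b, Rab38 and Rab32, the last a Rab of pigment and other lysosome-related organelles, were not detected in both areas.

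Early endosomes were represented by Rab5a, whose effectors fuse early endosomes. It was at 73.5 and 71.2 TPM and was the highest of 7 genes, 6 of them detected, that together held 5.10% of the summed TPM. Rab21, which acts on early endosomes and integrin uptake, followed with 22.8 TPM in replicate 1 and 15.8 in replicate 2. Rab20 had no counts.

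All 8 Rabs of regulated secretion were detected, although together they held 5.69% of the summed TPM. Rab3a, the main Rab of synaptic vesicles, was at 64.9 TPM in replicate 1 and 83.8 in replicate 2. Rab3b was at 31.0 and 13.1 TPM, Rab3c at 17.1 and 13.8, and Rab3d at 1.55 and 1.30. Rab3a was thus the highest Rab3 gene in both areas, and Rab3d lay just above the detection threshold. Rab27a, which tethers secretory granules and lysosome-related organelles, was at 6.69 and 6.31 TPM and Rab27b at 2.13 and 1.43. Rab37 and Rab26, which act on secretory granules and vesicles, averaged 9.60 and 4.07 TPM. Over protein-coding transcripts alone, Rab37 was at 4.01 TPM in replicate 1 and 4.33 in replicate 2, and Rab26 at 2.76 and 1.60. Rab26 shares 267 exon bases with Traf7 on the same strand, so reads of the 2 genes may be split between them.

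The 6 Rabs known from elsewhere as enriched in brain (Rab3a, Rab3c, Rab6b, Rab15, Rab33a and Rab39b) were all detected and summed to 234 ± 8.87 TPM (SD, n = 2). Rab33a, a Golgi and secretory vesicle Rab of neurons on the X chromosome, was the highest after Rab3a, with 57.8 and 69.5 TPM. Rab39b, an X-linked gene in which mutations cause intellectual disability, was at 28.8 and 21.2 TPM. None of the 5 genes listed as known from epithelial, pigment or blood cells (Rab17, Rab25, Rab32, Rab38 and Rab44) was detected. Rab32 alone of these had counts, 21 in replicate 1 and 8 in replicate 2. Detection took in 81.4% of all Rabs and 50.4% of all protein-coding genes. Both lists were chosen with earlier results of these data known, so the difference between them is a description and not a test.

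The cilia-linked and less studied Rabs held 2.67% of the summed TPM. Rab28, a Rab of ciliated photoreceptors among other cells, was the highest with 48.1 and 43.3 TPM. Rab40c, which carries a domain that binds a ubiquitin ligase, was at 7.75 and 8.84 TPM. The 4 members with counts that were not detected in both areas were Rab42, which passed in replicate 1 only, at 2.47 and 0.36 TPM, Rab36 at 0.96 and 0.84, Rab39 at 0.89 and 0.44, and Rab32 at 0.61 and 0.24. Just inside the detection threshold by mean level were Rab3d, Rab34 at 1.84 and 1.65 TPM, and Rab27b. Rab40b had a higher mean, but its 1.19 TPM in replicate 2 was the lowest value of any detected Rab. The genes with no counts were Rab7b, Rab17, Rab19, Rab20, Rab25, Rab38 and Rab44.

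Many Rabs come as close paralogs, and in most of the listed pairs 1 copy was well above the other. Of 19 pairs, 18 had a detected member, and in all 18 the same copy was higher in both areas, with deposited intervals on TPM that did not touch in either area. In 15 of them the copies were at least 2-fold apart in both areas on the TPM + 1 scale, and in 14 over protein-coding transcripts. The pairs are not all separate, since Rab3a and Rab5a each enter more than 1. How often pairs of other genes lie 2-fold apart was not measured, so this is not shown to be a trait of Rab pairs. Rab2a exceeded Rab2b (25.0 and 26.9 TPM) 13.3-fold, or 21.3-fold over protein-coding transcripts, Rab1a exceeded Rab1b (12.5 and 17.1 TPM) 10.5-fold, and Rab5a exceeded Rab5b (8.28 and 8.16 TPM) 7.95-fold and Rab5c (2.28 and 3.69 TPM) 18.7-fold. Rab9 exceeded Rab9b (8.90 and 10.6 TPM) 6.68-fold, Rab6a exceeded Rab6b (41.0 and 35.4 TPM) 5.25-fold, and Rab33a exceeded Rab33b (13.6 and 16.6 TPM) 4.02-fold. The letter a thus marked the higher copy in most pairs. Rab7 had 4324 counts in replicate 1 and 4556 in replicate 2 while Rab7b had 0.

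The pairs that departed from this were few. Rab11b exceeded Rab11a by only 1.37-fold, so that both recycling Rabs were abundant. Rab22a (11.7 and 9.64 TPM) and Rab31 (8.74 and 6.88 TPM), its near relative on endosomes and the Golgi, were 1.33-fold apart. Rab39b exceeded Rab39, which was below detection, 15.6-fold. Rab40c exceeded Rab40b 2.99-fold, and with protein-coding transcripts alone Rab40b was slightly the higher, by 0.16 on the log2 scale. The Rab3a to Rab3b ratio moved most between the areas, from a log2 of 1.04 in replicate 1 to 2.59 in replicate 2. Rab4a exceeded Rab4b (23.0 and 30.1 TPM) 3.59-fold, Rab3a exceeded Rab3c 4.56-fold and Rab3d 30.9-fold, and Rab27a exceeded Rab27b 2.72-fold. Where a copy was near or below detection the fold depended on the pseudocount of 1. With pseudocounts of 0.1 and 5 the log2 ratio was 5.60 and 3.62 for Rab3a over Rab3d, in place of 4.95, and -5.08 and -2.39 for Rab39 over Rab39b, in place of -3.96. With a pseudocount of 5 it was 3.28 for Rab5a over Rab5c in place of 4.22, 0.76 for Rab27a over Rab27b in place of 1.44, and -0.88 for Rab40b over Rab40c in place of -1.58.

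**Figure D2:**
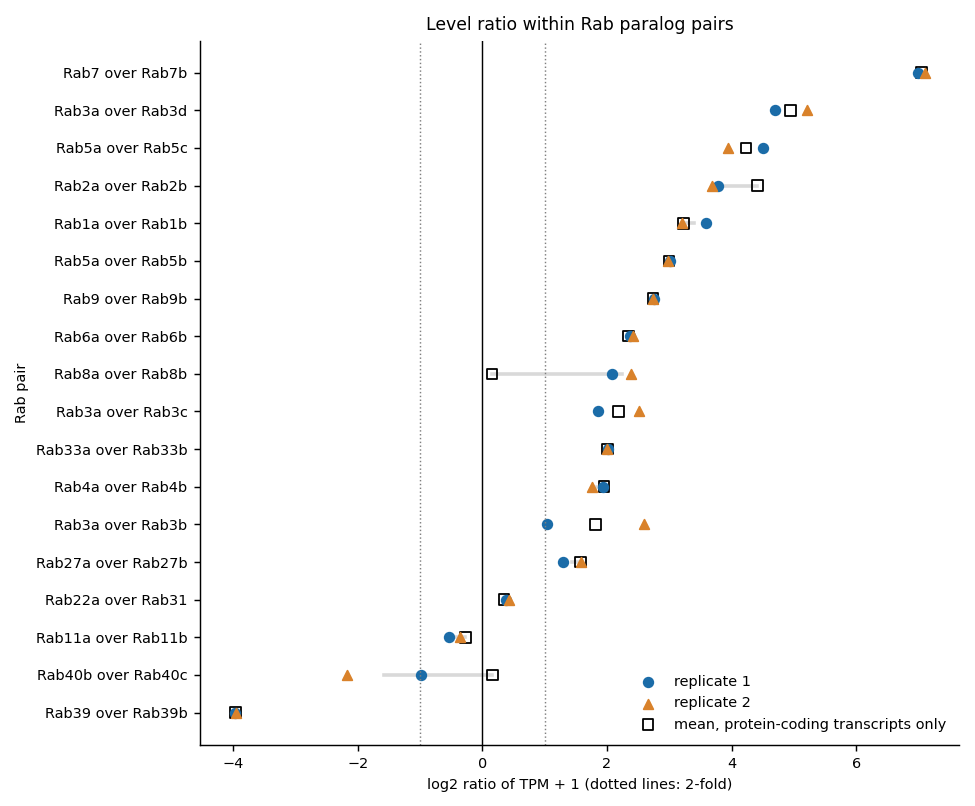
Log2 ratio of TPM + 1 between the copies of the 18 Rab pairs with a detected member, in replicate 1 (circles), replicate 2 (triangles) and for protein-coding transcripts only (open squares, mean of both areas), with dotted lines at 2-fold. In 15 pairs both area points lie to the right or left beyond 2-fold, and the Rab8a over Rab8b square falls back to near 0; Rab7b has no counts, so the position of its pair depends on the pseudocount.

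The leading isoform of most Rabs was the same in both areas. Among the 37 Rabs at 5 TPM or more in both areas, the same transcript led in 36, the exception being Rab2b. Its leader in replicate 1 is uncertain. There Rab2b-201 and Rab2b-202 had 324 and 278 expected counts, with deposited posterior standard deviations of 86.8 and 81.2. The leading transcript was annotated as protein coding in 34 of the 37, and 15 genes have only 1 listed transcript. Protein-coding transcripts held 92.2% of the family's summed TPM, or 2191 ± 34.7 TPM (SD, n = 2). The shares below are of TPM, which is per transcript length, and a short transcript can hold a large share of TPM with few reads.

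Rab8a (ENSMUSG00000003037.12, chr8:72161200-72183904), which carries vesicles to the plasma membrane and into cilia, was the highest of the 3 exceptions. Its level was 45.6 TPM in replicate 1 and 57.0 in replicate 2. A retained-intron transcript of 542 bases, Rab8a-202, held 76.9% and 78.8% of this TPM, and the coding transcript Rab8a-201 of 4550 bases held 10.6 and 12.1 TPM. By reads the order was the opposite, since the coding transcript had 805 and 895 expected counts and the retained-intron transcript 266 and 331. The retained bases are the 128 at chr8:72175930-72176057 of GRCm38. With coding transcripts alone, Rab8a and Rab8b (9.97 and 10.1 TPM) were 1.11-fold apart in place of 4.71-fold. The other exceptions were Rab37, where a retained-intron transcript held 54.3% and 57.7% of the TPM, and Rab40c, where a processed transcript held 60.9% and 80.2%.

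**Figure D3:**
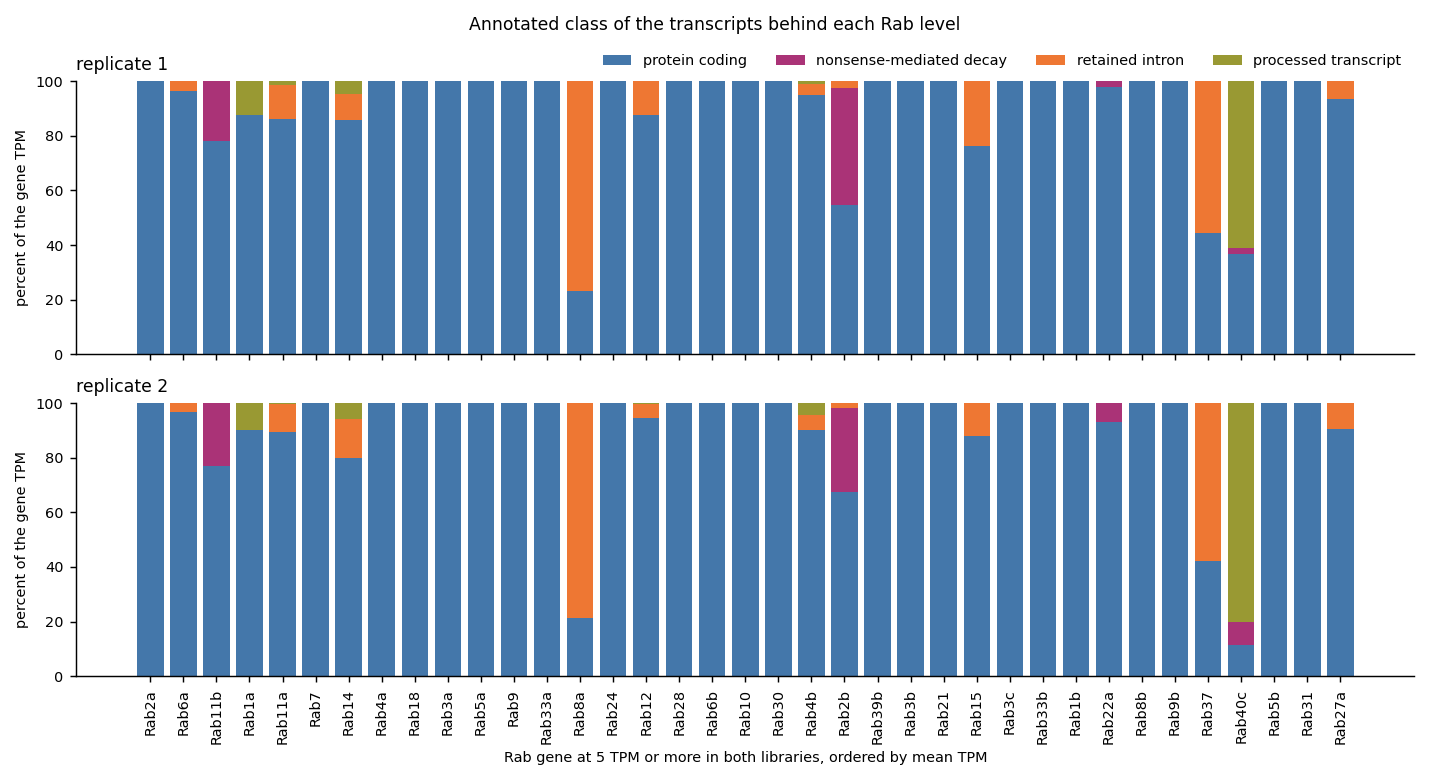
Share of each gene's TPM by annotated transcript class (stacked bars, percent), for the 37 Rab genes at 5 TPM or more in both areas, ordered by mean TPM, with replicate 1 above and replicate 2 below. Most bars are protein coding throughout, and Rab8a, Rab37 and Rab40c are the genes whose bars are mostly retained intron or processed transcript in both areas.

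Rab6a uses either of a pair of exons of 106 bases that replace each other. The exon of transcript Rab6a-201 was found in 88.6% of Rab6a TPM in replicate 1 and 89.1% in replicate 2, and the alternative exon in 7.58% in each. The sequences below differ at 30 of 106 positions, shown in capitals, both 5′ to 3′ on the plus strand of GRCm38.
Rab6a-201 exon, chr7:100629838-100629943: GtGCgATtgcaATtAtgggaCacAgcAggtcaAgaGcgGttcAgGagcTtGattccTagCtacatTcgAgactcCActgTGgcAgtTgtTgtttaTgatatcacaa
Rab6a-203 exon, chr7:100629666-100629771: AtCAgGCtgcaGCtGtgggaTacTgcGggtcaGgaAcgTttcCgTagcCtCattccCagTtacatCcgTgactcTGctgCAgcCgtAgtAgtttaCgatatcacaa
The same exon was thus the main one in both areas. Rab6a also shares 708 exon bases with Mrpl48 on the opposite strand, a mitochondrial ribosomal protein gene at 316 and 396 TPM, so part of either level is uncertain without strand.

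Rab1a was split between coding transcripts that differ in their coding exons. Rab1a-202 held 57.1% of its TPM in replicate 1 and 59.6% in replicate 2, and lacks the 2 coding exons at chr11:20223084-20223179 and chr11:20224367-20224498, 228 bases together. Rab1a-206, which has them, held 29.5% and 29.6%. By expected counts the longer Rab1a-206 was the higher, with 2079 and 2094 against 1733 and 1813. Rab7 was divided 63.0% and 63.0% to Rab7-205 against 35.3% and 34.9% to Rab7-204, and Rab3a was 82.5% and 71.1% Rab3a-201. Both pairs share their coding sequence. Rab11b-204, annotated for nonsense-mediated decay, held 21.8% and 23.0% of Rab11b TPM. Transcripts of that class held a larger share of TPM in Rab2b, 42.8% in replicate 1 and 30.5% in replicate 2. By expected counts the share was not larger in Rab2b. Rab11b-204 held 11.5% and 12.1% of the counts of its gene. In Rab2b the short transcripts Rab2b-207 and Rab2b-204 held 7.80% and 3.61% in replicate 1, and 8.38% and 0% in replicate 2.

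The areas were compared for each Rab with a two-sided exact binomial test of expected counts against the library totals, adjusted by Benjamini-Hochberg over 16636 genes. The test contrasts the 2 libraries rather than any conditions and treats each read as an independent molecule. Of 52 Rabs tested, 31 (59.6%) differed beyond counting error, against 47.6% of all genes tested. Among genes detected in both areas the share was 60.4% of Rabs (29 of 48) and 49.1% of protein-coding genes. The test calls smaller differences at higher counts, and the detected Rabs had the higher median level, 20.7 against 14.3 TPM. Whether level accounts for the gap was not tested. Of the 31, 14 were higher in replicate 1 and 17 in replicate 2, directions taken by 24% and 23.7% of all genes tested. With every count divided by 10, as if 10 reads came from each molecule, 1 Rab was called, Rab3b, against 0.697% of all genes. The sizes were small, with a median absolute log2 ratio of 0.21 for the Rabs and 0.21 for all genes tested. It was 0.21 for the detected Rabs and 0.18 for the detected protein-coding genes, and 26 of the tested Rabs lay on each side of 0.

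Only 3 Rabs (5.77%) were over 1.5-fold apart on the TPM + 1 scale, against 13.1% of all genes tested, and all 3 were higher in replicate 1, as were 7.3% of all genes tested. Among genes detected in both areas the share was 4.17% of Rabs (2 of 48) and 6.68% of protein-coding genes. Rab3b (ENSMUSG00000003411.6, chr4:108879063-108943324) had 647 counts in replicate 1 and 285 in replicate 2, a ratio of 2.28 in TPM + 1, with an adjusted p of 2.76e-28 from the exact binomial test. Rab40b was at 3.41 and 1.19 TPM, a ratio of 2.01. Rab42 had 28 counts in replicate 1 and 4 in replicate 2. With a pseudocount of 0.1 the count of Rabs over 1.5-fold apart was 7, against 26.7% of all genes tested, and with a pseudocount of 5 it was 1, Rab3b, against 1.79%. Among the relatives of Rab3b, Rab3a was higher in replicate 2 and Rab3c was 1.22-fold higher in replicate 1. The Golgi cell and inhibitory neuron markers were also higher in replicate 1 in 4 of 5 genes, 2 of them over 1.5-fold, and all 5 red blood cell genes were over 1.5-fold higher there. Endothelial markers were higher in replicate 1 in 5 of 5 genes (summed level 155 and 130 TPM), microglial markers in 6 of 7 (91.8 and 69.5 TPM) and Bergmann glia and astrocyte markers in 5 of 6. Mural cell markers were higher in replicate 2 in 5 of 6, 4 of them over 1.5-fold (38.2 and 66.6 TPM). So were oligodendrocyte markers in 6 of 6 genes and granule neuron markers in 7 of 10. Markers of unipolar brush cells (56.4 and 80.4 TPM) were split evenly, as were those of Purkinje cells. The part of these cell types in the Rab3b, Rab40b and Rab42 ratios was not tested.

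**Figure D4:**
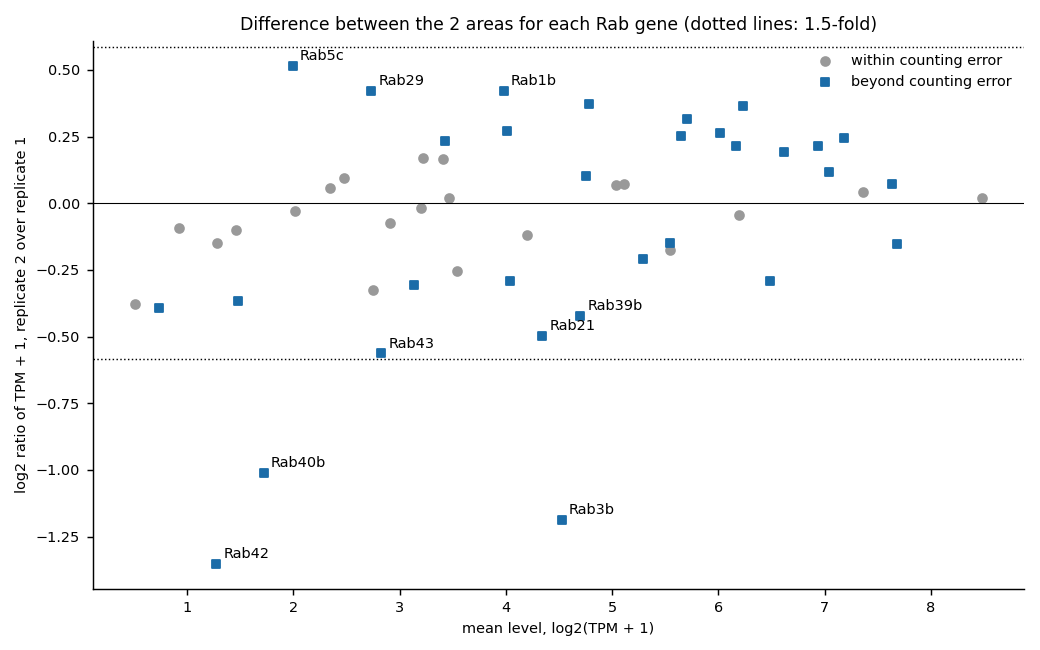
Log2 ratio of TPM + 1, replicate 2 over replicate 1, against mean log2(TPM + 1) for the 52 Rab genes tested, with blue squares beyond counting error, grey circles within it and dotted lines at 1.5-fold. Rab3b, Rab40b and Rab42 lie below the lower line, toward replicate 1, and no Rab lies above the upper one.

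The genes that act on Rabs were described from 7 lists of 124 genes, of which 99 (79.8%) were detected in both areas, against 50.4% of all protein-coding genes. For prenylation, the step that adds the lipid groups, Rabggtb, the beta subunit of the Rab geranylgeranyl transferase, was at 91.0 and 94.0 TPM and Chm, the Rab escort protein, at 23.8 and 30.1. Of the 5 genes of this list 4 were detected, and the exception was Chml, a second escort protein gene, at 0.76 and 1.22 TPM.

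Of the exchange factors 24 of 33 were detected. Dennd5a, which works with Rab6 and Rab39 proteins, led at 97.8 and 78.8 TPM, followed by the Rab5 factor Gapvd1 at 59.4 and 64.1. Of the GTPase-activating genes 33 of 35 were detected, led by Rabgap1l at 113 and 110 TPM and Rabgap1 at 86.2 and 94.8. Of the effectors of secretion 6 of 13 were detected, with the Rab3 effector Rims1, an active zone protein, at 110 and 122 TPM and Dmxl2 at 68.8 and 78.9. Endosomal effectors were detected in 17 of 21 genes, and the Rab5 effectors Appl2 (207 and 191 TPM) and Appl1 (162 and 145 TPM) were the highest. Of the late endosome and Golgi effectors 13 of 14 were detected, with the golgin Gcc2 at 270 and 233 TPM and Osbpl1a, a Rab7 effector, at 93.5 and 74.5. The phosphatase Ppm1h, which removes the phosphate that Lrrk2 places on Rabs, was at 46.9 and 41.4 TPM and Lrrk2 at 21.4 and 22.2. Of 115 of these genes tested, 5 were over 1.5-fold apart between the areas, 4 of them higher in replicate 1. Of all genes tested, 13.1% were in either direction and 7.3% higher in replicate 1. Among protein-coding genes detected in both areas the share in either direction was lower, 6.68%.

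**Figure D5:**
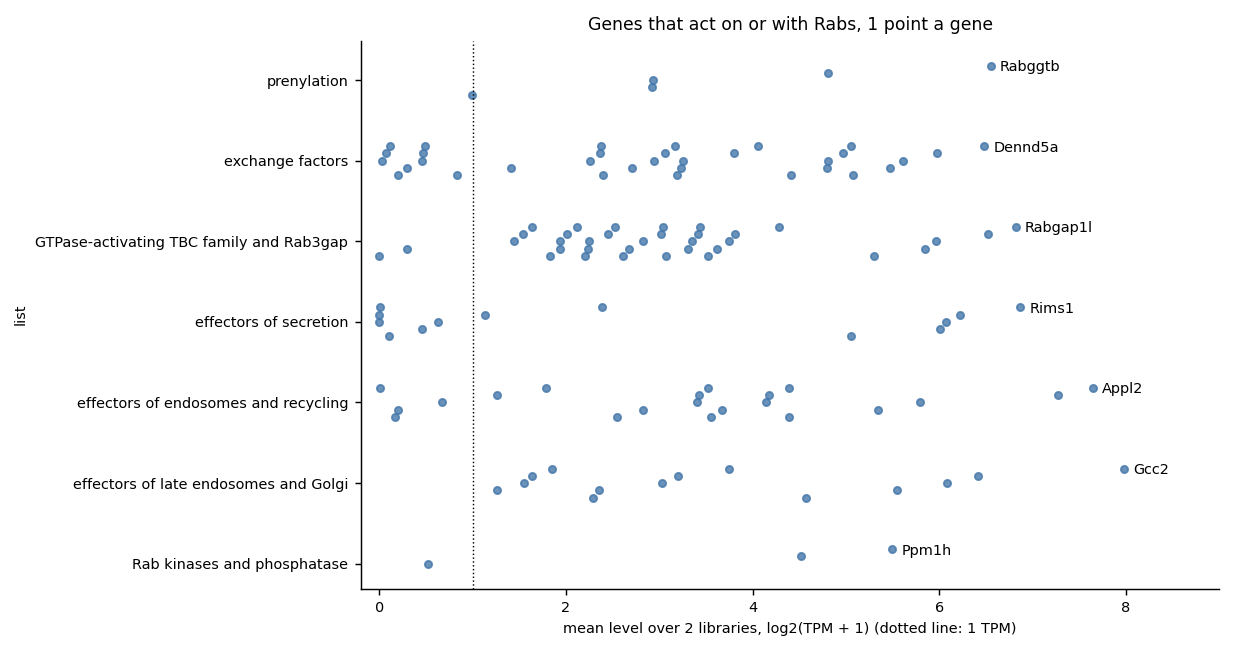
Mean level over both areas as log2(TPM + 1) of the 124 genes that act on or with Rabs, 1 point a gene, by list, with the highest gene of each list named. The dotted line marks 1 TPM; the vertical offset within a list only separates the points, and Gcc2 is the highest point.

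The promoters of the detected Rabs were rich in CG dinucleotides. In the 250 bases before the start site, from the RefSeq table on GRCm38.p6, which held 48 of the 59 genes, the median number of CG was 20 for 41 detected Rabs and 6 for 7 that were not. At least 10 CG stood in 34 of the 41, or 82.9%, and in 2 of the 7. This was close to 80.9% of the detected protein-coding genes and to 27.1% of those not detected, while 40.2% of all promoters reached it. Where a gene had several promoters in the table, the one with the most CG was counted. The promoters of Rab6b, a neuronal Rab at 38.2 TPM in the mean with 40 CG, and of Rab17, with no counts and 3 CG, lie near the top and at the bottom of the range. They are printed 5′ to 3′ on the gene's strand with CG in capitals. Both stretches lie inside the gene spans of the GENCODE annotation used for the other coordinates. There Rab6b starts upstream at chr9:103111787 and Rab17 at chr1:90969661.
Rab6b, chr9:103111824-103112073, plus strand: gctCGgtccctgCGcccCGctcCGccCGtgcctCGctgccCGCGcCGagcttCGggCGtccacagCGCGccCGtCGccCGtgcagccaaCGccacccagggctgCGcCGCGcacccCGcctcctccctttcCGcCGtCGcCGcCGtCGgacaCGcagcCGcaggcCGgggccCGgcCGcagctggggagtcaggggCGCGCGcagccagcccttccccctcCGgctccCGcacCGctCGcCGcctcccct
Rab17, chr1:90967668-90967917, minus strand: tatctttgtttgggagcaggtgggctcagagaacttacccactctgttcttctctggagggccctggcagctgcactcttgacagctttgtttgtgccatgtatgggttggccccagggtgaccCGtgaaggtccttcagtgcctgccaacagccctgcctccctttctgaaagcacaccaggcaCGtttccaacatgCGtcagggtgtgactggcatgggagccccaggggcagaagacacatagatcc

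Some Rab levels rest on shared sequence. In all, 17 Rabs share exon bases with another gene, 14 with a gene on the opposite strand and 3 with a gene on the same strand. The deposited posterior standard deviation of a Rab's count in the authors' assignment of reads was at most 19.4 counts, for Rab6a with 10957 counts in replicate 1. For single transcripts it could be much larger, such as 213 for Rab7-204 with 1468 counts in replicate 1. The pseudogene Rab11b-ps2 held 14.5 and 19.9 counts beside 5164 and 5274 for Rab11b, and Rab9b-ps1 held 0.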

How the data were processed

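Total RNA of 2 laser-captured areas was sequenced. The deposited expected counts are, per the file headers, estimated reads of a gene or transcript, the deposited TPM and FPKM were normalized by the authors for length and library, the deposited percent column is a transcript's share of its gene, and the deposited score columns hold the posterior standard deviation of a count and interval bounds on TPM, which centre on the posterior mean and need not hold the TPM. Per the deposited notes, reads were placed on mm10 with GENCODE M4. For the aligner, the counter, their versions and strand: not given in the sources used here.

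Names, classes and coordinates came from GENCODE M21 (GRCm38) by gene ID without version; all 59 Rabs and 210 of their 210 transcripts matched. The counting test (SciPy 1.17.1) used expected counts rounded to whole numbers, genes with a summed count of at least 10 and an adjusted p of 0.05, and was tested on simulated data. Scaling alternatives used edgeR 4.0.16 and DESeq2 1.42.0. Counts range from 19261911 to 19962271; intervals and floors cover counting error only, since reads carry no molecule labels. Rabs, role, pair, machinery and marker lists were chosen with earlier results of these data known. Values by area are given for the 12 highest Rabs, the highest 2 of each role or machinery list, both copies of pairs with a detected member, Rabs over 1.5-fold apart and those nearest the detection threshold; others were named after their values were seen. Planned protein features were replaced by the coding ends, since no protein sequences were used here. 1 planned list of genes acting on Rabs is not reported here.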

Additional observations from a re-analysis of the deposited data

How the results depend on the processing

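The median Rab level of 10.7 TPM was 10.6 to 11.7 with either area left out, 8.90 as FPKM and 16.4 over Rabs with at least 10 summed counts. Detection gave 48 to 49 Rabs with either area left out, 49 at 0.5 TPM or more and 37 at 5 TPM or more. Over protein-coding transcripts, an alternative chosen after seeing the data, it gave 47. The summed TPM was 2344 to 2409 with either area left out, 4003 when rescaled over nuclear protein-coding genes and 2191 over protein-coding transcripts, an alternative chosen after seeing the data. Rabs beyond counting error fell from 31 to 1 with counts divided by 10. Rabs over 1.5-fold apart numbered 7 with a pseudocount of 0.1 (26.7% of all genes) and 1, Rab3b, with a pseudocount of 5 (1.79%). Both counts stayed within 1.5 times under edgeR and DESeq2 scaling and with no filter. The log2 ratio of Rab40b over Rab40c turned from -1.58 to 0.16 over protein-coding transcripts. No paired analysis was possible because there is 1 group. With 2 areas under 1 donor label, spread between animals was not measured.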
